A study of Mus musculus with 25 samples.

Results

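Clustered protocadherins are cell surface adhesion proteins of the cadherin superfamily, encoded by 3 tandem gene clusters, Pcdha, Pcdhb and Pcdhg. They are known best from neurons, where each cell chooses its own set of isoforms and the isoforms bind like to like between membranes, so that a neuron can tell its own branches from those of its neighbours. In the Pcdha and Pcdhg clusters every isoform has its own promoter and variable first exon, which is spliced to constant exons shared by the whole cluster, whereas Pcdhb genes have no constant part and, apart from Pcdhb9 in the annotation used here, a single exon each. Promoter choice is known to involve DNA methylation, CTCF and cohesin. The genes were chosen by name: every protein-coding gene of the GENCODE mouse annotation whose symbol begins with Pcdha, Pcdhb, Pcdhga, Pcdhgb or Pcdhgc followed by a number. No expression value entered the choice. It gave 56 of the 47575 genes measured, namely 12 Pcdha, 22 Pcdhb and 22 Pcdhg genes, of 57 in the annotation (Pcdha4b was not analysed here).

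The values used here are from sperm RNA of 25 C57/BL6J male mice, 5 per diet, fed for at least 8 weeks. The study states a larger number of males per diet for its sperm sequencing. MD-LPD and LPD, the low-protein diets, held 9% casein and 24% sugar. In MD-WD and WD, the Western diets, casein was at 19%, sugar at 34%, cholesterol at 0.15% and milk fat at 20%. The control diet (CD, called NPD in the labels) held 18% casein and 21% sugar, with neither milk fat nor cholesterol. MD-LPD and MD-WD (MDL and MDWD in the labels) also had methyl donors added per kg of diet: 5 g of choline chloride, 15 g of betaine, 7.5 g of methionine, 15 mg of folic acid and 1.5 mg of vitamin B12. Sperm had swum up from the sliced caudal epididymis, and total RNA was converted to stranded libraries. Each library came from 1 male, so the spread between libraries is a spread between males. For 3 libraries (MD-LPD male 15, LPD male 15 and CD male 15) the treatment field of the labels names another diet than the title, and the title was followed.

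Reads credited to genes summed to 32455480 to 54108158 per library, which is not the sequencing depth. The label of sperm was met by its defining markers: all 20 sperm and late spermatid markers, led by Odf1 of the tail outer dense fibres, had reads in every library. Their summed level differed widely between males, from 111167 normalised counts in LPD male 12 to 1801890 in MD-WD male 12. A normalised count is a read count divided by a size factor of its library. Markers of other cells were present as well. Epididymal markers, led by Crisp1, summed to 88427 to 481320 normalised counts over the 25 libraries, fibroblast markers to 28201 to 284301 and leukocyte markers to 26595 to 166878. In bulk samples such as these, fewer cells of a type and less RNA per cell cannot be told apart.

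All 3 clusters lie on chromosome 18 of the assembly GRCm39, on the + strand, Pcdha at 37063237 to 37320716, Pcdhb at 37397991 to 37657532 and Pcdhg at 37794846 to 37975014. Shared exons limit what a single isoform's count can mean. Exons shared on the same strand with other genes made up 39.3% to 91.4% of the exonic bases of the 12 Pcdha genes (median 53.7%) and 32.2% to 67.4% of those of the 22 Pcdhg genes (median 45.6%). Of the 22 Pcdhb genes, only Pcdhb21 and Pcdhb22 overlapped another gene on their strand, by at most 9.67%. Reads from a constant exon can be credited to any isoform of the cluster. The sum over a cluster does not turn on how they were divided among its members, but it does turn on what was credited to other genes on the same exons, such as Pcdhac1 and Pcdhac2 of the alpha cluster and the noncoding models Gm53048 and Gm38182 at the gamma cluster. Pcdha4 has the fewest bases of its own, 494 of 5768.

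Nearly every clustered protocadherin had reads credited to it in these libraries. A read of a shared exon need not come from the gene credited, and the libraries also held markers of other cells. Among genes with a mean of at least 5 normalised counts, 73.6% of the clustered protocadherins had a read in all 25 libraries, against 75.0% of all genes. A median of 54 of the 56 genes had at least 1 read in a library, 52 had at least 5 reads and 49 at least 10. CD male 10 had reads for the fewest, 42, and 56 was the highest number. On a scale of normalised counts per kb of exon, the level over the 25 libraries was highest for Pcdhgc3 (58.8 ± 23.7, SD, n = 25), followed by Pcdha3 (48.2 ± 35.2), Pcdhb20 (46.0 ± 25.2) and Pcdha1 (44.1 ± 38.6). Pcdhgb6 came next at 32.8 ± 8.68, and the other 51 genes lay between 0.943 and 28.1. The spreads of these first genes, Pcdhgb6 included, overlap, and differences in level between genes were not tested. Pcdhgc3, one of the C-type isoforms that many cell types are known to use without random choice, was the leading Pcdhg gene in 20 of 25 libraries. Pcdha3 led its cluster in 18 and Pcdha1 in 7, and Pcdhb20 led the Pcdhb genes in 17. Pcdhb2, Pcdhb6 and Pcdhb10 stayed under a mean of 5 normalised counts and were not tested, which left 53 genes.

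**Figure D1:**
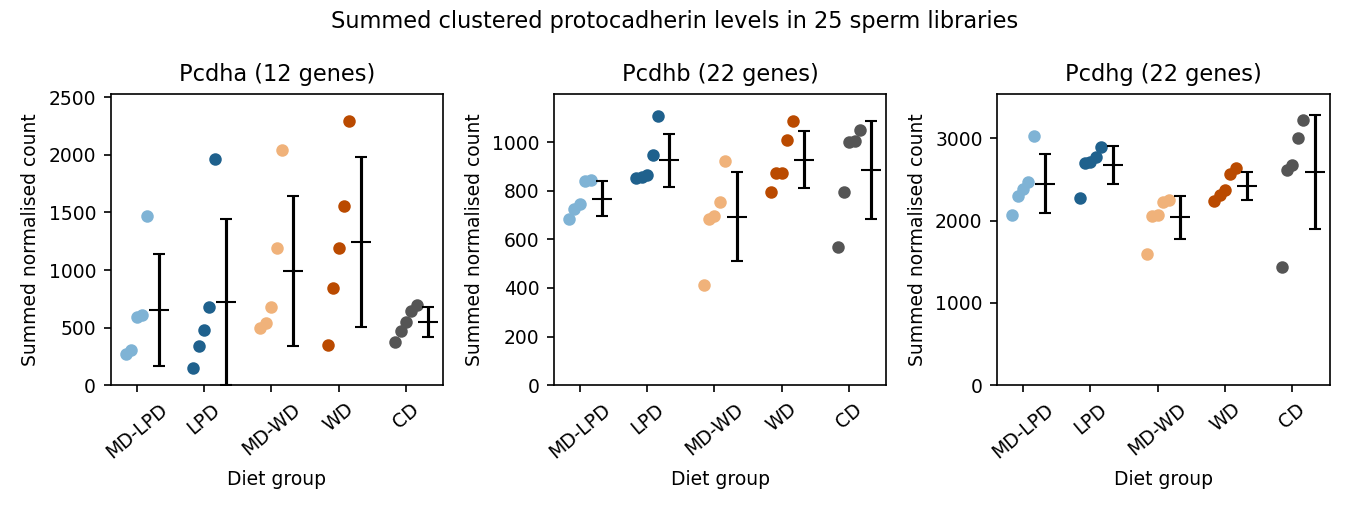
Summed normalised counts of the Pcdha, Pcdhb and Pcdhg genes (y axes, linear from 0) in each library (points) of the 5 diet groups (x axis). Black marks give the mean and the SD (n = 5). The Pcdha sum runs from 151 to 2298 over the 25 libraries, while the Pcdhg sum runs from 1433 to 3222.

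The clusters differed in how far they varied between males. The summed Pcdha level was 614, 1470.2, 308, 592 and 267 normalised counts in MD-LPD libraries, 1962, 343, 151, 678 and 480.2 in LPD libraries, 1192, 679, 2042, 538 and 496 in MD-WD libraries, 1191, 2298, 840.4, 1553 and 346 in WD libraries, against 642, 697, 472, 378 and 551 in CD libraries. It differed 15.2-fold between the lowest library (LPD male 12) and the highest (WD male 11), with a coefficient of variation of 71.8% over the 25 libraries. High libraries occurred in 4 groups, and the CD libraries were close together. The summed Pcdhb level differed 2.68-fold (coefficient of variation 19.4%) and the summed Pcdhg level 2.25-fold (17.2%). The lowest Pcdhg sum was that of CD male 10, 1433 normalised counts, against 2614 to 3222 in the other CD libraries. The sperm markers spread as the Pcdha genes did, 16.2-fold and with a coefficient of variation of 74.8%.

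The Pcdha level followed the sperm markers from male to male. Per 1000000 normalised counts of sperm markers, the summed Pcdha level was 1416 ± 279.9 in MD-LPD, 1370.0 ± 234 in LPD, 1262 ± 164 in MD-WD, 1264 ± 143 in WD and 1276 ± 167 in CD libraries (SD, n = 5 each), with a coefficient of variation of 15.0% over the 25 libraries. The ranges of the 5 groups overlapped, and the lowest and highest of the 25 values were 1027 and 1764. For Pcdhb20 the same ratio averaged 291 over 25 libraries with a coefficient of variation of 30.9%. The summed Pcdhg level relative to the sperm markers had a coefficient of variation of 87.6%.

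**Figure D2:**
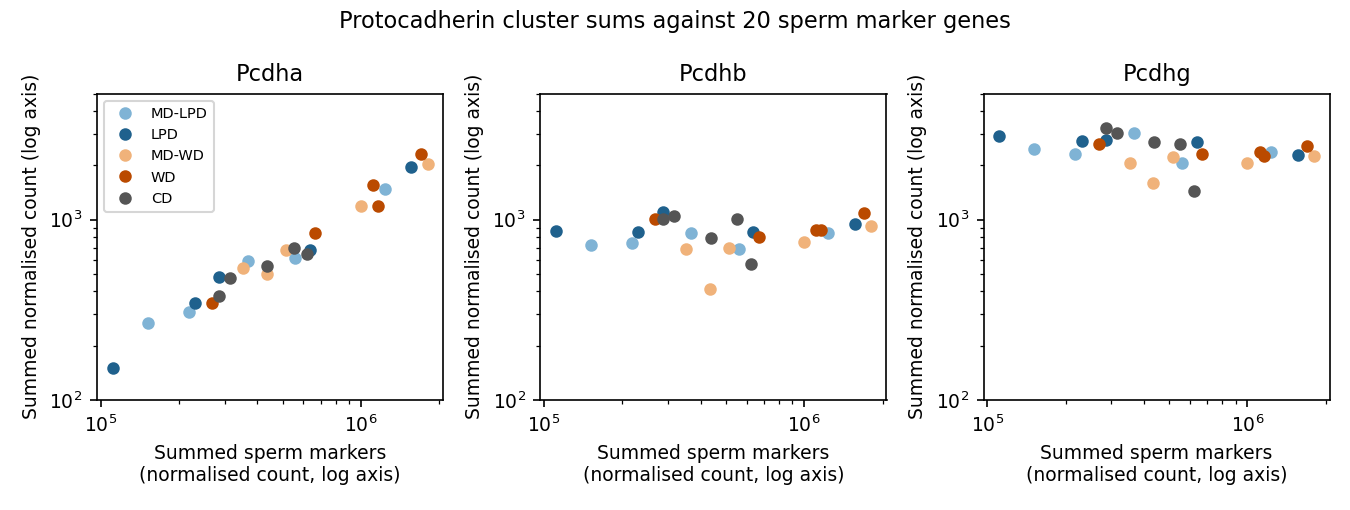
Summed normalised counts of the Pcdha, Pcdhb and Pcdhg genes (y axes, log) against the summed normalised counts of 20 sperm and late spermatid marker genes (x axes, log), 1 point per library, coloured by diet. The Pcdha points lie along a rising line from LPD male 12 (151) to WD male 11 (2298), and the Pcdhg points stay between 1433 and 3222 over the whole range of the markers.

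Correlations across males were computed on log2 values with the diet group means removed, so that they compare males of 1 diet, for the gene of highest mean in each cluster with 13 lists of cell type markers. Pcdha3 had a Pearson r of 0.97 with the sperm markers and a Spearman rho of 0.97 (25 libraries, permutation p within diet groups, two-sided, 1e-05 each, the smallest that 100000 resamples can give; 6.5e-05 and 7.8e-05 after Benjamini-Hochberg adjustment over 39 pairs). Without the 2 libraries farthest from the median of the markers r was 0.96. With every library scaled to the same total it was 0.93 (adjusted permutation p 0.00039). Pcdhb20 had an r of 0.96 and a rho of 0.92 (adjusted permutation p 6.5e-05 and 7.8e-05), an r of 0.94 without the 2 farthest libraries and of 0.81 at equal totals (adjusted permutation p 0.000975). Pcdhgc3 did not follow the sperm markers, with an r of -0.06 and a rho of -0.04 (adjusted permutation p 0.783 and 0.921). At equal totals its r was -0.72 (adjusted permutation p 0.00689), with no r over all genes at that scaling to set beside it.

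Pcdhgc3 followed markers of other cells instead. Its r was 0.58 and its rho 0.62 with fibroblast markers such as Dcn (adjusted permutation p 0.0247 and 0.0185; r 0.58 without the 2 farthest libraries), and 0.71 and 0.66 with liver plasma protein genes, a list led by Trf, or transferrin (adjusted permutation p 0.00228 and 0.0105; r 0.60 without the 2 farthest libraries). At equal totals these were 0.62 and 0.69. Its r with smooth muscle markers was 0.22, and 0.72 at equal totals (adjusted permutation p 0.537 and 0.00299). At equal totals Pcdhgc3 also had adjusted permutation p under 0.05 with Sertoli cell (r 0.67), Schwann cell (0.65), Leydig cell (0.60), epididymal (0.57) and endothelial markers (0.48). Its association was thus not particular to the lists named first. Pcdha3 had an r of 0.89 with the neuronal list and of 0.88 with the adipocyte list (rho 0.90 and 0.88, adjusted permutation p 6.5e-05 and 7.8e-05 for each), 0.88 and 0.85 without the 2 farthest libraries. The neuronal sum was led by Map2, at 47.3%, while Dbh, the enzyme of noradrenaline synthesis, and Nefl, a neurofilament protein, were at 0 in 24 and 23 of 25 libraries. The adipocyte sum was 96.5% Lipe, the hormone-sensitive lipase, which is also known from the testis. Adipoq, a defining adipocyte gene, averaged 39.8 normalised counts against 6998 for Lipe. At equal totals the correlation of Pcdha3 with the neuronal list was 0.25 (adjusted permutation p 0.383) and with the adipocyte list 0.64 (adjusted permutation p 0.00689). Pcdhb20 had an r of 0.87 with the neuronal and of 0.84 with the adipocyte list (rho 0.86 and 0.79; adjusted permutation p 6.5e-05 for both r). In all, 14 of the 39 pairs passed an adjusted p of 0.05 for r.

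The genes that followed the sperm markers lay mostly at the 5′ end of the locus. In the order of the locus, the first 15 tested genes, Pcdha1 to Pcdhb4, all had a positive r with the sperm markers, from 0.35 (Pcdha9) to 0.99 (Pcdha1), with a median of 0.69. Of the 38 tested genes from Pcdhb5 to Pcdhgc5, 31 had a negative r. Pcdhb20 (0.96) and Pcdhgc5 (0.63) stood apart, and the other 36 lay between -0.67 (Pcdhga1) and 0.23 (Pcdhga6), with a median of -0.26. The median r of all 28311 genes was -0.10, and 13.8% of them had an r above 0.8, against 4 of 12 Pcdha (Pcdha1, Pcdha2, Pcdha3 and Pcdha7), 2 of 19 Pcdhb (Pcdhb3 and Pcdhb20) and 0 of 22 Pcdhg genes. At equal totals the first 15 genes ran from -0.01 (Pcdha10) to 0.98 and the 36 from -0.72 to 0.01, and Pcdhgc5 was then at -0.03. The r of all genes is given for the main scaling only. Whether the negative r at equal totals are particular to these genes was therefore not tested. The cut after Pcdhb4 and the setting apart of Pcdhb20 and Pcdhgc5 were chosen after these r were seen. The split by place is therefore a description and not a test. Among the first 15 genes, Pcdha9 and Pcdha11 were at 0.13 and 0.12 at equal totals, and the median was 0.46. All these r come from the same 25 libraries, and isoforms of a cluster share exons.

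**Figure D3:**
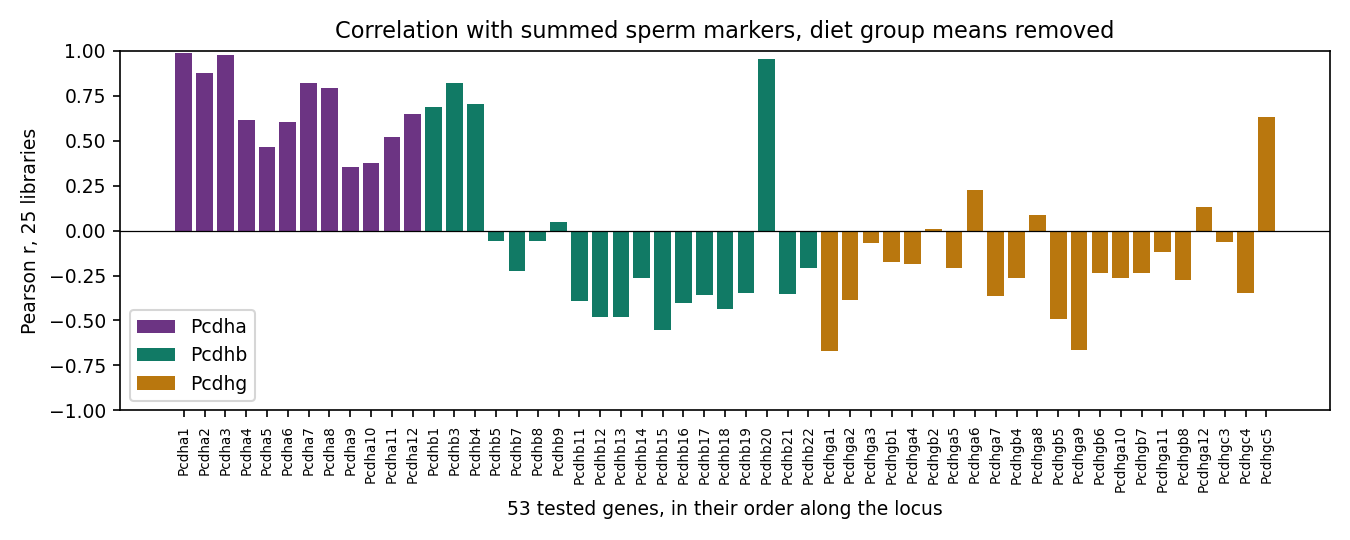
Pearson r of the log2 level of each of the 53 tested genes with the summed sperm markers over 25 libraries, diet group means removed (y axis), in their order along the locus (x axis), coloured by cluster. The bars from Pcdha1 to Pcdhb4 are positive, Pcdhb20 stands alone at 0.96 among mostly negative bars, and Pcdhgc5 at the end is at 0.63.

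Within the Pcdha cluster, Pcdha3 had 178, 517, 101, 181 and 70.1 normalised counts in MD-LPD libraries, 679.9, 103, 38.8, 201 and 167 in LPD libraries, 465, 216, 627, 129 and 166 in MD-WD libraries, 375, 640.0, 199, 379.6 and 116.8 in WD libraries, against 247, 213, 146, 129.5 and 150.4 in CD libraries. Pcdha1 had 206, 499, 76.1, 128 and 46.3 normalised counts in MD-LPD libraries, 590.5, 80.4, 30.1, 201 and 59.9 in LPD libraries, 323, 173, 656, 128 and 116 in MD-WD libraries, 423, 775, 253, 395 and 68.4 in WD libraries, against 188, 198, 84.3, 85.7 and 125 in CD libraries. Both were highest in LPD male 10 or WD male 11 and lowest in LPD male 12. Pcdha2 ran from 15.4 in LPD male 12 to 223 in MD-WD male 12, and Pcdha7 from 6.06 in MD-LPD male 11 to 105 in WD male 13. The other Pcdha genes had lower means, and 3 of the 12 had no read in 1 or more libraries. Pcdhac1 and Pcdhac2, the C-type alpha isoforms that the naming rule leaves out, averaged 37.3 and 22.7 normalised counts over the 25 libraries.

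Among the Pcdhb genes, Pcdhb20 had 178, 285, 84.8, 149 and 46.3 normalised counts in MD-LPD libraries, 325, 90.9, 53.5, 125 and 83.2 in LPD libraries, 219, 129.7, 299, 89.8 and 94 in MD-WD libraries, 221, 369.8, 129.5, 249 and 89.2 in WD libraries, against 252, 178, 132, 113 and 109 in CD libraries. It was highest in WD male 11 (369.8) and lowest in MD-LPD male 15 (46.3), and the groups overlapped. Pcdhb14 ran from 31.5 to 135 normalised counts over the 25 libraries, Pcdhb17 from 19.8 to 128 and Pcdhb16 from 16 to 179. Pcdhb16 and Pcdhb17 are separate single-exon genes with no exon shared on their strand.

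In the Pcdhg cluster, Pcdhgc3 had 593, 235, 485, 340.0 and 248 normalised counts in MD-LPD libraries, 234, 337, 299.5, 578 and 538 in LPD libraries, 233, 178, 264, 249 and 383 in MD-WD libraries, 353, 591, 224, 262 and 385 in WD libraries, against 125, 332, 242, 279 and 230.4 in CD libraries. Values above 500 occurred in MD-LPD male 9, LPD males 13 and 15 and WD male 11, and the lowest value was in CD male 10. Of the other C-type genes, Pcdhgc5 ran from 49.8 to 252 and Pcdhgc4, which is known to be needed for the survival of some neurons, from 0 in CD male 10 to 85.7 in CD male 14. Of the Pcdhga genes, Pcdhga7 ran from 13.9 to 267 normalised counts, Pcdhga5 from 51.4 to 222, Pcdhga3 from 26.7 to 276 and Pcdhga12 from 20.5 to 167. Of the Pcdhgb genes, Pcdhgb6 ran from 53.4 to 257, Pcdhgb4 from 66.5 to 282, Pcdhgb2 from 69.7 to 221 and Pcdhgb5 from 27.3 to 199.8. Pcdhga8, named after its values were seen, had 0 reads in LPD male 15, MD-WD male 14 and CD male 11 and 60 to 192 normalised counts in the other 22 libraries.

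The diets were then compared gene by gene with limma on log2(normalised count + 1), for the 28311 genes whose mean was 5 or more, and p-values were adjusted over all of these by the method of Benjamini and Hochberg. The scale of log2(normalised count + 1) holds for every log2 difference of a gene given here and understates the change of low genes. No clustered protocadherin passed an adjusted p of 0.05 in any of the 6 comparisons (0 of 53, as for 0% of all genes in each), and edgeR also called 0% of all genes and 0 members in each. DESeq2 called Pcdhga10 only, in comparisons with CD that are given with that gene, and 0 members for MD-LPD against LPD (0.0315% of all genes) and for MD-WD against WD (0.0252%). With limma weights per library the calls were 0 of the 53 for MD-LPD (0.00706% of all genes), 3 for LPD (6.24%), 5 for MD-WD (11.2%) and 19 for WD (43.1%) against CD, 0 for MD-LPD against LPD (0.131%) and 0 for MD-WD against WD (0%). The 19 were 8 Pcdha, 4 Pcdhb and 7 Pcdhg genes, 11 higher and 8 lower on WD, and in each comparison with members called their share lay under that of all genes. The median standard error of a Pcdha gene was 0.69, and of a Pcdhg gene 0.34.

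For WD against CD all 12 Pcdha genes were higher on WD, with log2 differences of 0.51 to 1.69 and a median of 1.17, against a median of 0.03 over all genes. The 20 sperm markers moved alike, 20 of 20 higher with a median of 1.17. The Pcdhb genes had a median of 0.34 (13 of 19 higher) and the Pcdhg genes of -0.03 (11 of 22 higher). Of the 53 genes, 4 were higher and 3 lower at an unadjusted limma p under 0.05, which 8.17% and 8.1% of all genes were. Without 1 library the higher count ran from 1 (WD male 11) to 8 (WD male 14) and the lower from 0 (WD male 10, CD male 11 or CD male 15) to 6 (CD male 10), while all 12 Pcdha genes stayed higher each time. No gene had all 5 WD libraries above or below all 5 CD libraries, as 1.29% and 2.56% of all genes had. The summed Pcdha level averaged 1246 ± 738 normalised counts in WD and 548 ± 128 in CD libraries (SD, n = 5 each), a log2 ratio of 1.18, and relative to the summed sperm markers of the same library, a comparison chosen after the data were seen, the log2 ratio was -0.01. Scaling every library to the same total moved the median difference of all genes by -0.51, to -0.49, and the Pcdha median was then 0.64 with 11 of 12 genes higher, the Pcdhb median -0.20 and the Pcdhg median -0.56.

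The gene of lowest p in this comparison was Pcdha12. Pcdha12 had 50.1, 93.6, 41.8, 79.7 and 23.5 normalised counts in WD libraries, against 19.8, 6.35, 14.5, 15.5 and 29.0 in CD libraries. For Pcdha12 this gave a log2 difference of 1.69 ± 0.69 (SE) and a limma Benjamini-Hochberg adjusted p of 0.256. The highest 4 of these 10 values were WD values, and WD male 14 lay within the CD range. Pcdhb19 had 28.0, 65.2, 31.0, 53.1 and 107 normalised counts in WD libraries, against 54.6, 103, 76.7, 124 and 84.4 in CD libraries. In limma Pcdhb19 had a log2 difference of -0.75 ± 0.34 (SE) and a limma Benjamini-Hochberg adjusted p of 0.285. Pcdhgb4 had 119, 152, 126, 133 and 101 normalised counts in WD libraries, against 130.1, 259, 193, 185 and 282 in CD libraries. Between the groups Pcdhgb4 had a log2 difference of -0.69 ± 0.31 (SE) and a limma Benjamini-Hochberg adjusted p of 0.285. Both were lower on WD in the mean, with groups that overlapped.

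For MD-WD against CD all 12 Pcdha genes were again higher, with a median of 0.77 against 0.11 over all genes, and the 20 sperm markers were all higher with a median of 0.75. The WD and MD-WD comparisons use the same CD libraries. Without MD-WD male 12, 11 of 12 Pcdha genes were higher (median 0.54), as were 11 without CD male 14 (median 0.75). The Pcdhb median was -0.26 (7 of 19 higher) and the Pcdhg median -0.33 (6 of 22 higher). At an unadjusted p under 0.05, 1 gene was higher and 4 were lower, as were 5.97% and 4.39% of all genes. Without CD male 10 the lower count was 14 of 53, with 10.1% of all genes lower at that p, and without MD-WD male 16 or CD male 11 it was 2. The higher count was 0 when MD-WD male 12 was left out and 4 when CD male 12 was. No gene had groups that did not overlap (1.93% above and 1.89% below over all genes). The summed Pcdha level averaged 989 ± 650.4 in MD-WD and 548 ± 128 in CD libraries, a log2 ratio of 0.85. Without MD-WD male 12 that ratio was 0.41. Relative to the sperm markers, with all libraries kept, it was -0.02. The summed Pcdhg level averaged 2040 ± 264 in MD-WD and 2591 ± 693 in CD libraries, a log2 ratio of -0.35. At equal totals, where the median of all genes was -0.17, a move of -0.28, the Pcdha median was 0.48 (11 of 12 higher) and the Pcdhg median -0.62 (3 of 22 higher).

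Pcdhb14 had 31.5, 69.8, 85.3, 82.3 and 34 normalised counts in MD-WD libraries, against 63.9, 88.9, 129, 135 and 104 in CD libraries. The comparison gave a log2 difference of -0.85 ± 0.29 (SE) and a limma Benjamini-Hochberg adjusted p of 0.481. MD-WD males 9 and 16 were the lowest of the 10, and CD male 10 lay below 3 MD-WD libraries. Pcdhb18 had 38.2, 63.7, 36.1, 37.8 and 20 normalised counts in MD-WD libraries, against 33.7, 107, 115, 105 and 67.7 in CD libraries. For Pcdhb18 this gave a log2 difference of -1.07 ± 0.37 (SE) and a limma Benjamini-Hochberg adjusted p of 0.481. Of the MD-WD libraries 4 lay above CD male 10, and all 5 lay below the other 4 CD libraries. Pcdha4 had 47.2, 47.8, 104, 44.5 and 25 normalised counts in MD-WD libraries, against 4.65, 14.8, 16.2, 21.0 and 38.7 in CD libraries. In limma Pcdha4 had a log2 difference of 1.55 ± 0.61 (SE) and a limma Benjamini-Hochberg adjusted p of 0.481. CD male 15 lay above MD-WD male 16, and the other 4 CD libraries lay below every MD-WD library.

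**Figure D4:**
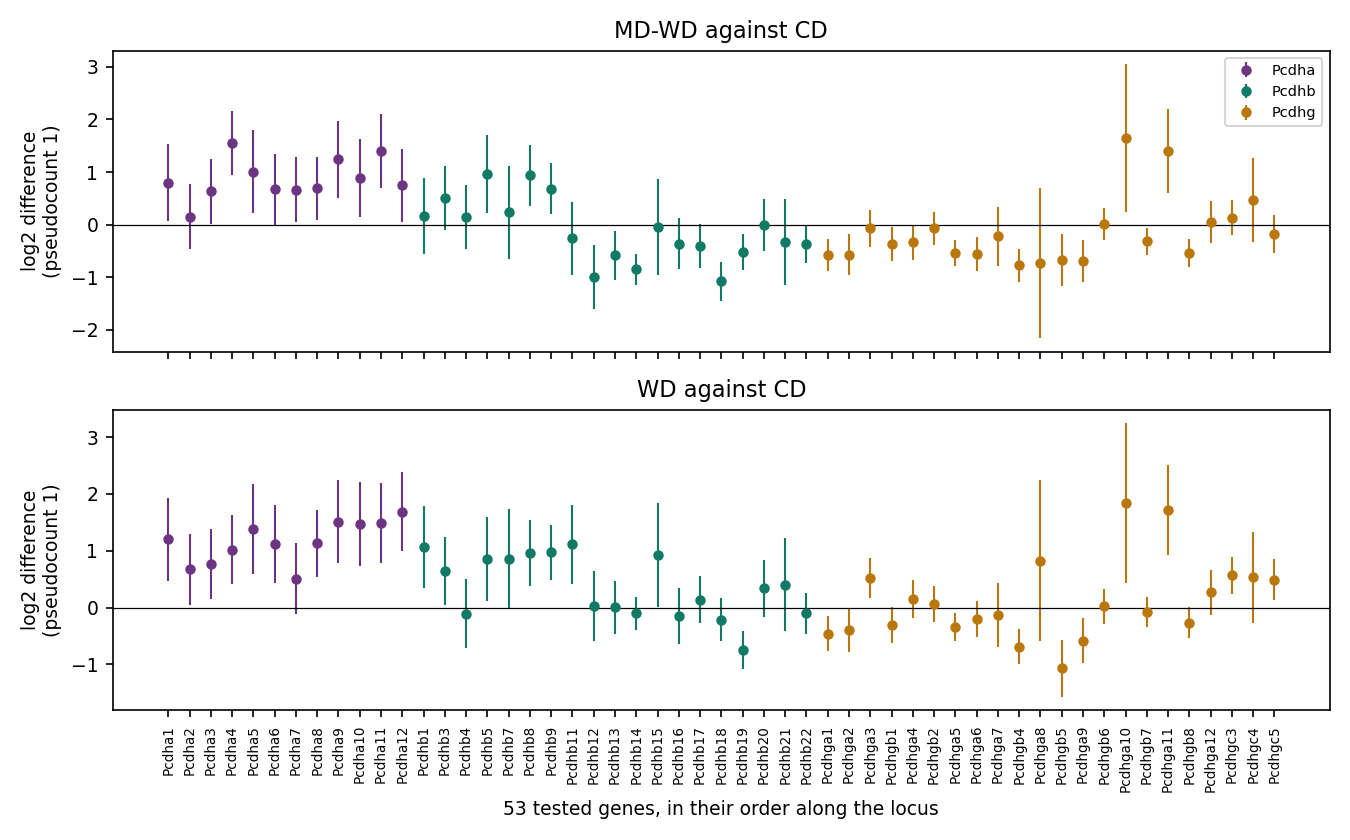
Log2 differences of MD-WD against CD (above) and of WD against CD (below) on log2(normalised count + 1), for the 53 tested genes in their order along the locus. Points are limma estimates and bars their standard errors. The 12 Pcdha genes lie above 0 in both panels, and none of the 53 passed the test in either.

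On the low-protein diets no such shift of the Pcdha genes was seen. For MD-LPD against CD 7 of 12 Pcdha genes were higher (median 0.05), 5 of 19 Pcdhb (median -0.22) and 9 of 22 Pcdhg genes (median -0.09), against -0.01 over all genes. For LPD against CD 7 of 12 Pcdha genes were higher (median 0.11), 12 of 19 Pcdhb (median 0.10) and 11 of 22 Pcdhg genes (median -0.02), against -0.04 over all genes. The sperm marker medians were 0.05 and 0.04. At an unadjusted p under 0.05 MD-LPD gave 1 gene higher and 2 lower (1.79% and 1.43% of all genes) and LPD 3 higher and 0 lower (4.8% and 3.76%). Without CD male 10 these counts were 1 and 6 for MD-LPD (2.73% and 2.19% of all genes) and 2 and 1 for LPD (3.91% and 4.19%). Without LPD male 15 the LPD count was 1 higher, and without CD male 14 it was 5. The mean summed Pcdha level was 650.3 ± 485 in MD-LPD and 723 ± 719 in LPD, against 548 ± 128 in CD libraries. The log2 ratio of LPD to CD was 0.40, and -0.41 without LPD male 10. That of MD-LPD to CD was 0.25, and -0.30 without MD-LPD male 10. Equal totals moved the median of all genes by -0.20 in MD-LPD and -0.25 in LPD, to -0.21 and -0.28. The Pcdha medians were then -0.16 and -0.15. Leaving out 1 library turned the sign of the Pcdha medians too, which in MD-LPD ran between -0.35 (MD-LPD male 10 left out) and 0.37 (MD-LPD male 15) and in LPD between -0.29 (LPD male 10) and 0.37 (LPD male 12).

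Pcdhga5 had 51.4, 101, 133, 107 and 128 normalised counts in MD-LPD libraries, against 136, 172, 222, 198 and 134 in CD libraries. Between the groups Pcdhga5 had a log2 difference of -0.77 ± 0.25 (SE) and a limma Benjamini-Hochberg adjusted p of 0.999. It was the only tested clustered protocadherin in this comparison with all 5 MD-LPD libraries below all 5 CD libraries, as 0.6% of all genes were, while 0.424% of all genes and 0 of the 53 lay above. Pcdha11 had 31.1, 25.8, 9.42, 27.7 and 15.2 normalised counts in MD-LPD libraries, against 22.1, 3.18, 10.2, 3.65 and 2.64 in CD libraries. The comparison gave a log2 difference of 1.57 ± 0.70 (SE) and a limma Benjamini-Hochberg adjusted p of 0.999. An antisense gene covers 45.1% of the exonic bases of Pcdha11. Pcdhgb4 had 68.5, 142, 137, 165 and 163 normalised counts in MD-LPD libraries, against 130.1, 259, 193, 185 and 282 in CD libraries. For Pcdhgb4 this gave a log2 difference of -0.65 ± 0.31 (SE) and a limma Benjamini-Hochberg adjusted p of 0.999. The groups overlapped for both of these.

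Pcdhb9 had 18.4, 32.3, 12.04, 37.1 and 90.9 normalised counts in LPD libraries, against 8.13, 13.8, 25.6, 10.9 and 6.16 in CD libraries. In limma Pcdhb9 had a log2 difference of 1.32 ± 0.48 (SE) and a limma Benjamini-Hochberg adjusted p of 0.561. LPD male 15 held the highest value. Pcdhga3 had 122, 102, 179, 276 and 136 normalised counts in LPD libraries, against 26.7, 108, 119, 106 and 103 in CD libraries. Between the groups Pcdhga3 had a log2 difference of 0.89 ± 0.36 (SE) and a limma Benjamini-Hochberg adjusted p of 0.561. CD male 10 was far below the rest. Pcdhgc3 had 234, 337, 299.5, 578 and 538 normalised counts in LPD libraries, against 125, 332, 242, 279 and 230.4 in CD libraries. The comparison gave a log2 difference of 0.70 ± 0.33 (SE) and a limma Benjamini-Hochberg adjusted p of 0.564. LPD males 10 and 12 lay within the CD range, and the fibroblast markers, with which Pcdhgc3 correlated, were all higher on LPD (12 of 12, median 1.04, summed range 28201 to 284301 in LPD and 29792 to 49099 in CD libraries). Their part in the Pcdhgc3 values was not tested. Between LPD and CD no clustered protocadherin had groups that did not overlap, as 0.65% of all genes had above and 1.2% below.

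The methyl donor supplement was compared within each base diet. For MD-LPD against LPD 8 of 12 Pcdha, 7 of 19 Pcdhb and 7 of 22 Pcdhg genes were higher (medians 0.09, -0.30 and -0.08, against 0.01 over all genes). At an unadjusted p under 0.05 there were 0 genes higher and 1 lower, as were 0.925% and 0.668% of all genes, and the lower count ran from 1 to 3 without 1 library. The Pcdha median was -0.39 with LPD male 12 left out and 0.50 with LPD male 10 left out. The summed Pcdhb level was 768 ± 71.6 in MD-LPD and 925 ± 109.7 in LPD libraries. The log2 ratio of the summed Pcdha level was -0.15, and 0.65 without LPD male 10 or -0.70 without MD-LPD male 10. Pcdhga3 had 43.6, 82.0, 92.2, 75.5 and 82.4 normalised counts in MD-LPD libraries, against 122, 102, 179, 276 and 136 in LPD libraries. For Pcdhga3 this gave a log2 difference of -1.06 ± 0.36 (SE) and a limma Benjamini-Hochberg adjusted p of 1. All 5 MD-LPD libraries lay below all 5 LPD libraries, as 0.0636% of all genes did, and 0 clustered protocadherins and 0.184% of all genes lay above. Pcdhga6 averaged 91.4 ± 44.2 in MD-LPD and 131 ± 28.8 in LPD libraries, with a log2 difference of -0.67 ± 0.32 (SE) and a limma Benjamini-Hochberg adjusted p of 1. Pcdhga5 averaged 104 ± 32.5 and 139.7 ± 20.2 in MD-LPD and LPD libraries, with a log2 difference of -0.48 ± 0.25 (SE) and a limma Benjamini-Hochberg adjusted p of 1.

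For MD-WD against WD 47 of the 53 genes were lower, 10 of 12 Pcdha (median -0.39), 16 of 19 Pcdhb (median -0.54) and 21 of 22 Pcdhg genes (median -0.19), against a median of -0.03 over all genes. Without MD-WD male 16 the lower genes were 35 of 53 (8 Pcdha, 14 Pcdhb and 13 Pcdhg, medians -0.18, -0.47 and -0.11), and without any other library 43 to 47. At equal totals, which moved the median of all genes by 0.23, 8 of 12, 13 of 19 and 10 of 22 were lower, with medians of -0.15, -0.31 and 0.04, so that the direction of the Pcdhg genes depends on the scaling. The sperm markers were lower in MD-WD as well (19 of 20, median -0.29, summed range 352740 to 1801890 in MD-WD and 268092 to 1698920 in WD libraries). Markers of epididymal epithelium were also lower in MD-WD (11 of 13, median -0.63, summed range 88427 to 219112 in MD-WD and 175303 to 342157 in WD libraries), and leukocyte markers higher (14 of 15, median 0.51, summed range 51958 to 166878 in MD-WD and 31278 to 69260.4 in WD libraries). Their part in the protocadherin values was not tested. At an unadjusted p under 0.05 there were 0 genes higher and 2 lower, as were 4.76% and 0.788% of all genes. Without MD-WD male 16 the lower count was 0, with 1.16% of all genes higher and 0.339% lower. The mean sums in MD-WD and WD libraries were 989 ± 650.4 and 1246 ± 738 for Pcdha, 693 ± 183 and 927 ± 118 for Pcdhb, and 2040 ± 264 and 2427 ± 171 for Pcdhg genes. The log2 ratio of the Pcdha sums was -0.33, and 0.01 without WD male 11.

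Pcdhb11 had 5.62, 17.4, 15.9, 15.1 and 4 normalised counts in MD-WD libraries, against 19.1, 22.5, 36.4, 30.4 and 33.6 in WD libraries. In limma Pcdhb11 had a log2 difference of -1.37 ± 0.70 (SE) and a limma Benjamini-Hochberg adjusted p of 0.901. All 5 MD-WD libraries lay below all 5 WD libraries, as 0.127% of all genes did, and 0.48% of all genes and 0 clustered protocadherins lay above. Pcdhb14 averaged 60.6 ± 26.1 in MD-WD and 95.6 ± 20.9 in WD libraries, with a log2 difference of -0.75 ± 0.29 (SE) and a limma Benjamini-Hochberg adjusted p of 0.896. Pcdhb18 averaged 39.2 ± 15.7 in MD-WD and 74.3 ± 38.3 in WD libraries, with a log2 difference of -0.86 ± 0.37 (SE) and a limma Benjamini-Hochberg adjusted p of 0.896. The effect of the supplement on WD minus that on LPD, tested as an interaction in limma, passed an adjusted p of 0.05 for 0 of the 53 genes and 0 of 28311, and an unadjusted p under 0.05 for 0 and 302.

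Pcdhga10 was the single tested clustered protocadherin with no read in any CD library, which held for 61 of the 28311 genes, or 0.215%. It reached the mean of 5 only through libraries of the other diets. That share and the ratios to CD given below come from the same values and are a description. Reads were credited to it in 9 of the 25 libraries, and the outcome of its test differed between tools. Pcdhga10 had 0, 0, 0, 91.7 and 0 normalised counts in MD-LPD libraries, 0, 36.8, 15.4, 0 and 13.3 in LPD libraries, 0, 0, 2.89, 24.3 and 2 in MD-WD libraries, 0, 0, 4.28, 110.1 and 0 in WD libraries, against 0, 0, 0, 0 and 0 in CD libraries. It had reads in 1 of 5 MD-LPD, 3 of 5 LPD, 3 of 5 MD-WD, 2 of 5 WD and 0 of 5 CD libraries, so every diet group also held libraries at 0. The CD group was set to a floor of 3 reads over its 5 libraries, which was chosen and not measured. The mean of Pcdhga10 was then 31.4-fold that floor in MD-LPD, 22.4-fold in LPD, 10.02-fold in MD-WD and 39.2-fold in WD. Single libraries set these bounds: without MD-WD male 14 the bound was 2.09-fold in MD-WD, without WD male 13 it was 1.83-fold in WD, without LPD male 11 it was 12.3-fold in LPD, and without MD-LPD male 14 there was none for MD-LPD. The limma log2 differences from CD were 1.31 ± 1.40 in MD-LPD, 2.62 ± 1.40 in LPD, 1.64 ± 1.40 in MD-WD and 1.84 ± 1.40 in WD (SE), with Benjamini-Hochberg adjusted p of 0.999, 0.623, 0.584 and 0.472. DESeq2 on the recovered reads called it for MD-LPD, LPD and MD-WD (adjusted p 3.8e-05, 5.71e-05 and 0.000329), where it called 0.0357%, 0.0841% and 0.111% of all genes. For WD, where DESeq2 called 0.259% of all genes, it gave Pcdhga10 no adjusted p (unadjusted 1.76e-09). Those calls rest on few libraries. Without MD-LPD male 14 all remaining MD-LPD libraries were at 0 as in CD, and without WD male 13 the WD log2 difference was 0.60 in limma.

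The whole variable exon of Pcdhga10, 2634 bases or 54.4% of its exonic bases, lies opposite an exon of the long noncoding gene Gm26672 on the other strand. The rest is shared with the other Pcdhg genes. Gm26672 had 81.0, 136, 146, 175 and 177 normalised counts in MD-LPD libraries, 105, 183, 176, 97.2 and 191 in LPD libraries, 146, 137, 126, 106 and 92 in MD-WD libraries, 115, 143, 115, 73.4 and 145 in WD libraries, against 116, 181, 188, 286 and 208 in CD libraries. The CD libraries were the highest group in the mean, at 196 ± 61.2, against 143 ± 38.98 in MD-LPD, 150.3 ± 45.2 in LPD, 121 ± 22.3 in MD-WD and 118 ± 29.1 in WD libraries. Pcdhga10 and Gm26672 together averaged 161 ± 68.3 normalised counts in MD-LPD, 163 ± 57.7 in LPD, 127 ± 19.8 in MD-WD and 141 ± 27.4 in WD, against 196 ± 61.2 in CD libraries (SD, n = 5 each). WD male 13, the highest for Pcdhga10, was the lowest of the 25 for Gm26672, whereas MD-LPD male 14 and LPD male 11, the next highest, each had the second highest Gm26672 level of their group (175 and 183). The libraries are stranded, but the strand setting of the counting is not given in the sources used here, so reads of the pair may not have been told apart. Antisense genes also cover 63.5% of Pcdhb12, 28.7% of Pcdhga11 and 27.9% of Pcdhgc3.

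**Figure D5:**
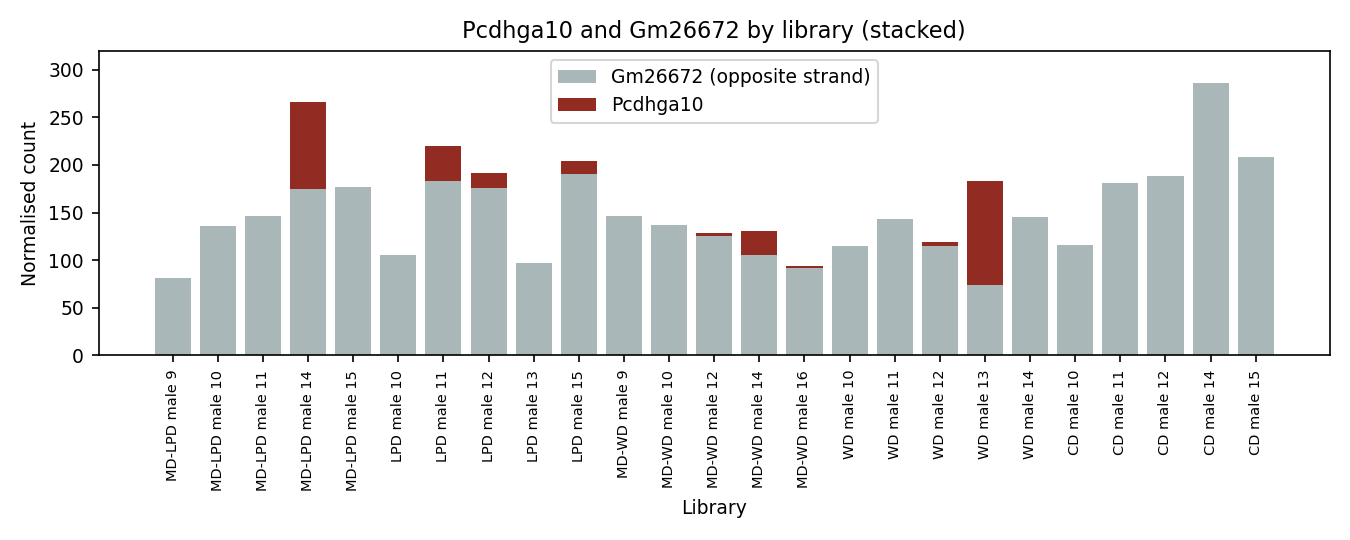
Normalised counts (y axis) of Gm26672 (grey) and of Pcdhga10 (red, stacked on top) in each of the 25 libraries (x axis). Pcdhga10 is at 0 in all 5 CD libraries and in 11 others, and the 3 tallest red bars are those of WD male 13, MD-LPD male 14 and LPD male 11.

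Genes around the clustered protocadherins were described from lists of relatives, regulators and partners. Of the 12 tested non-clustered protocadherins, which have their own loci and lack the cluster structure, 8 were higher in MD-LPD, 8 in LPD, 8 in MD-WD and 9 in WD than in CD (medians 0.32, 0.39, 0.28 and 0.59). Those of highest mean were Pcdh7, at 801.8 ± 376 normalised counts in WD and 1082 ± 399 in CD libraries, Pcdh1, at 532 ± 55.3 in WD and 553 ± 155 in CD, and Pcdh9, at 395 ± 166 in WD and 225 ± 35.1 in CD. Of the 8 classical cadherins, led by Cdh1, or E-cadherin, 6, 7, 5 and 4 were higher in MD-LPD, LPD, MD-WD and WD. Of the 20 chromatin regulators known or proposed to act at these clusters, 7 were higher and 13 lower in WD than in CD (median -0.19). Among those of high mean were Nipbl, which loads cohesin, at 5143 ± 594 in WD and 5695 ± 2261 in CD libraries, and Pds5a, a cohesin regulator, at 3304 ± 780.1 in WD and 5114 ± 577 in CD libraries. Ctcf, chosen after its values were seen, had 2447 ± 665 in WD and 2229 ± 820.3 in CD. The 18 cytoplasmic partners of the constant domains, led by Wasf2, Ctnnd1 and Nckap1, of which the first and the last are subunits of the actin-regulating WAVE complex, had medians of 0.08, 0.10, 0.13 and -0.11 in MD-LPD, LPD, MD-WD and WD against CD. None of these genes passed the limma test in any comparison (adjusted p of 0.05, Benjamini-Hochberg).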

How the data were processed

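The authors sequenced total RNA as pairs of 75-bp reads, trimmed them with Trim Galore (0.6.7), aligned them with HISAT2 (2.2.1) to GRCm39 and quantified transcripts with StringTie (2.2.1), versions also named in the submitters' processing notes. The deposited signal is a count per gene divided by a DESeq2 size factor, 0.642 to 1.50 here. The annotation release and the strand setting of the counting are not given in the sources used here. How reads of shared exons were divided between isoforms was not tested. Dividing each library by its smallest step gave whole reads for 100% of values (tolerance 0.01). Library totals of reads credited to genes were 32455480 to 54108158, with a median of 38676778, and 0 columns were left without a sample. Names came from GENCODE vM39 (47034 of 47575 genes matched).

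Libraries were grouped by title. Tests set each diet against CD and each supplemented diet against its base diet, using limma 3.58.1 (R 4.3.3) with trended, robust empirical Bayes on log2(normalised count + 1), all 25 libraries in 1 model, for the 28311 genes averaging 5 or more, at a Benjamini-Hochberg adjusted p of 0.05. Cluster sums were given without a test. Correlations used 100000 resamples within diet groups. Alternatives were edgeR 4.0.16 and DESeq2 1.42.0 on the recovered reads (DESeq2 on all genes), other pseudocounts, filters and scalings, library weights, a block for the male's number, other groupings and leaving out each library. Others, the Pcdha sum relative to sperm markers and the Pcdhb sum without Pcdhb20, were chosen after seeing the data. Scripts were tested on simulated data. Tables and figures were made in Python 3.11.15 (pandas 2.3.3, numpy 2.4.6, matplotlib 3.10.9, scipy 1.17.1).

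Genes named are the 4 of highest mean in Pcdha, Pcdhb, Pcdhga and Pcdhgb, the 3 Pcdhgc genes, the 3 of lowest p in each comparison, Pcdhga10, which the study names, any member at 0 in all CD libraries and, of other lists, genes of highest mean or past the threshold. Pcdhga8 and genes given for their place in the correlations, structure or regulation were added after their values were seen. The members and lists were chosen with earlier results of these data known. One regulator that this rule names is not reported here.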

Additional observations from a re-analysis of the deposited data

Results flagged for a closer look

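The cluster sums and the named genes were checked in each diet group of 5 for a library whose gap to the nearest other, divided by the range of the group, exceeded 0.71. Of 155 groups tested 21 had such a library. A rate of about 1 in 20 by chance would hold only for independent groups of normally distributed values. The groups were not independent, because every gene and sum was taken from the same libraries, and LPD male 10 gave 8 of the 21. The values were also not log-transformed. Whether 21 exceeds chance can therefore not be told from this count. All values are normalised counts, with those of the other 4 libraries of the same diet in the same order.

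MD-LPD male 10 was high for the summed Pcdha level at 1470.2, Pcdha12 at 43.3 and Pcdha3 at 517 (the other 4 lay within 267 to 614, 1.56 to 12.4 and 70.1 to 181). LPD male 10 was high for Pcdha11 at 67.1, Pcdha12 at 77.6, Pcdha2 at 172, Pcdha3 at 679.9, Pcdha4 at 63.1, Pcdha7 at 86.8, Pcdhb20 at 325 and Pcdhgc5 at 252 (the other 4 lay within 5.26 to 21.7, 4.44 to 20.5, 15.4 to 57.7, 38.8 to 201, 8.69 to 17.9, 7.35 to 26.9, 53.5 to 125 and 58.8 to 101). MD-WD male 12 was high for Pcdha2 at 223 and Pcdha4 at 104 (the other 4 lay within 38 to 82.0 and 25 to 47.8). CD male 11 was low for Pcdha7 at 19.1 (the other 4 lay within 33.2 to 38.3). MD-WD male 16 was low for Pcdhb16 at 16 (the other 4 lay within 76.6 to 92.3). MD-LPD male 14 was high for Pcdhga10 at 91.7 and Pcdhgb6 at 207 (the other 4 lay within 0 to 0 and 146 to 163). MD-WD male 14 was high for Pcdhga10 at 24.3 (the other 4 lay within 0 to 2.89). WD male 13 was high for Pcdhga10 at 110.1 (the other 4 lay within 0 to 4.28). CD male 10 was low for Pcdhga3 at 26.7 and Pcdhgb5 at 34.9 (the other 4 lay within 103 to 119 and 169 to 199.8). LPD male 10 accounts for 8 of the 21 and had the highest sperm marker sum of its group. CD male 10, with 2, had the fewest reads credited to genes of all libraries.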

How the results depend on the processing

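The call of 0 clustered protocadherins held in all 6 comparisons under other pseudocounts, filters, TMM, equal totals, 2 groups alone, edgeR, the other groupings and leaving out each library (range 0 to 0). DESeq2 called 1, Pcdhga10, in LPD, MD-LPD and MD-WD against CD. Library weights in limma called 3 in LPD, 19 in WD and 5 in MD-WD against CD (5.66%, 35.8% and 9.43% of the 53), where they called 6.24%, 43.1% and 11.2% of all genes. Libraries of males with the same number in other diets had a mean correlation of 0.03 (33 pairs, -0.42 to 0.57). Those with other numbers had one of 0.0006 (217 pairs, -0.62 to 0.69). The number of the male thus showed no clear pairing, which was not tested. With a replicate block for that number, 0 members were called in each comparison. Relative to the sperm markers the summed Pcdha log2 ratio was -0.014 in WD and -0.016 in MD-WD against CD, both chosen after the data were seen. At equal totals the ratio of the Pcdhb sums was -0.39 and of the Pcdhg sums -0.56 in WD against CD, and that of the Pcdhg sums -0.048 in MD-WD against WD. Grouping by the treatment field gave -0.031 for the Pcdhb sums of MD-LPD against LPD. Correlations no longer past the threshold at equal totals were those of Pcdha3 with smooth muscle (-0.47) and neuronal markers (0.25), and of Pcdhb20 with smooth muscle (-0.32), neuronal (0.38), Schwann cell (-0.44), Sertoli cell (-0.51) and Leydig cell markers (-0.28). Past it only at equal totals were those of Pcdha3 with epididymal (-0.57), endothelial (-0.49) and Sertoli cell markers (-0.53). For Pcdhgc3 they were sperm (-0.72), epididymal (0.57), smooth muscle (0.72), endothelial (0.48), Schwann cell (0.65), Sertoli cell (0.67) and Leydig cell markers (0.60). Without 1 library the log2 ratios against CD ran from -0.06 to 0.13 for the Pcdhb sum of LPD, -0.05 to 0.14 for that of WD, -0.11 to 0.14 for the Pcdhg sum of LPD and -0.24 to 0.01 for that of MD-LPD, the negative end without CD male 10 each time. The cause of these shifts was not tested. The 524 alternative values for named genes cover 22 comparisons, of the 3 genes of lowest p in each comparison and of Pcdhga10 against CD. Of them, 0 reversed and 11 passed the threshold where the reported one did not. The other 513 kept their direction or were at 0, and kept their side. Genes picked by low p in these libraries tend to keep their direction, and Pcdhga10 cannot fall below CD libraries at 0. The count therefore says little about other genes. Pcdhga10 has no value under a minimum mean of 20. Low counts limit the Pcdhb genes of lowest mean, and 5 males a group limit every comparison.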
